A study of Helianthus annuus with 9 samples.

Results

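The miR395 and miR399 families were followed in the maturing seed of sunflower, Helianthus annuus, in plants named L-1-OL-1. Members were all mature or hairpin entries of the deposited small RNA table whose name begins with miR395 or miR399, which gave 23 of 8473 small RNA entries. Of these 23 entries, 0 carry a sunflower miRNA name, so each is named after miRNAs listed for other species. The miR395 family had 10 entries (5 mature and 5 hairpin) with 1006 reads over the series, and the miR399 family had 13 entries (5 mature and 8 hairpin) with 2385 reads. Every library came from this line, which the labels call a high oleic acid line grown in the field, and there were 3 libraries each at 7, 22 and 37 days. No treatment or second genotype was involved, and the sources used here do not give the plants' nutrient supply. Neither do they give the event from which days were counted, nor whether a day's libraries came from separate plants or pooled seeds. A p-value therefore covers only how far the libraries of a day vary, and that variation may be technical. The table holds small RNAs alone, so the labelled seed tissue could not be set against marker messenger RNAs.

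MicroRNAs of plants are short RNAs that guide cleavage or repression of messenger RNAs with a matching site. In Arabidopsis, miR395 accumulates when sulfate is scarce and targets ATP sulfurylases, the first enzymes of sulfate assimilation, and a sulfate transporter. Likewise in Arabidopsis, miR399 accumulates when phosphate is scarce, moves from shoot to root and targets PHO2, a ubiquitin-conjugating enzyme that lowers phosphate uptake and transport. A mature entry stands for the miRNA itself and a hairpin entry for the precursor it is cut from, as far as the column of entry types says.

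The libraries held 31011803 to 34397084 reads in all, of which 2208822 to 4050364 stood in small RNA entries. Known miRNA entries, hairpins included, took 16.9% ± 0.992, 19.2% ± 0.511 and 9.25% ± 1.35 of the small RNA reads on days 7, 22 and 37 (SD, n = 3). Ribosomal, transfer and other structural RNA fragments took 3.82% ± 0.451, 5.66% ± 1.42 and 17.3% ± 4.46 on the same days. Both families were sparse beside this depth, and 1 read was worth 0.259 to 0.385 CPM (counts per 1000000 small RNA reads, with TMM factors). A count of 0 allows up to 3 reads, or 0.777 to 1.15 CPM in these libraries, for counting error alone.

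The miR399 family was highest at day 22 and lowest at day 37. Its summed entries held 183, 157 and 181 reads in the day 7 libraries, 421, 519 and 835 in the day 22 libraries, and 20, 37 and 32 reads in the day 37 libraries. The family's mean level was 56.0 ± 6.41, 166.01 ± 48.0 and 10.4 ± 2.42 CPM on days 7, 22 and 37 (SD, n = 3). No library of a day overlapped with a library of another day, and the day 22 libraries were the most spread, from 120 to 216 CPM. How many other small RNAs separate in this way was not counted, so non-overlap, here and for single entries below, only describes the reads. Day 22 lay 2.97-fold above day 7 (log2 1.57, SE 0.22, adjusted p = 0.000269, edgeR quasi-likelihood test). Day 37 lay 15.8-fold below day 22 (log2 -3.98, SE 0.27, adjusted p = 4.9e-06) and 5.32-fold below day 7 (log2 -2.41, SE 0.27, adjusted p = 5.15e-05).

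These calls are to be read against a table in which most entries moved. With families as rows, 7132 small RNAs were tested, and 35.4% of them were called higher at day 22 than at day 7, 32.3% lower at day 37 than at day 22, and 46.5% lower at day 37 than at day 7. Among the 33 known miRNA families in that table, 66.7%, 39.4% and 33.3% were called in these directions. In bulk seeds, fewer cells of a type and less RNA per cell cannot be told apart. The fall at day 37 went together with the lower miRNA share and the higher structural RNA share given above. Scaled to known miRNA reads alone, miR399 was still lower at day 37, by a log2 change of -3.40 against day 22 and -2.46 against day 7. On that scaling the rise at day 22 against day 7 was smaller, at 1.91-fold (log2 0.93, SE 0.23, adjusted p = 0.00533).

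**Figure D1:**
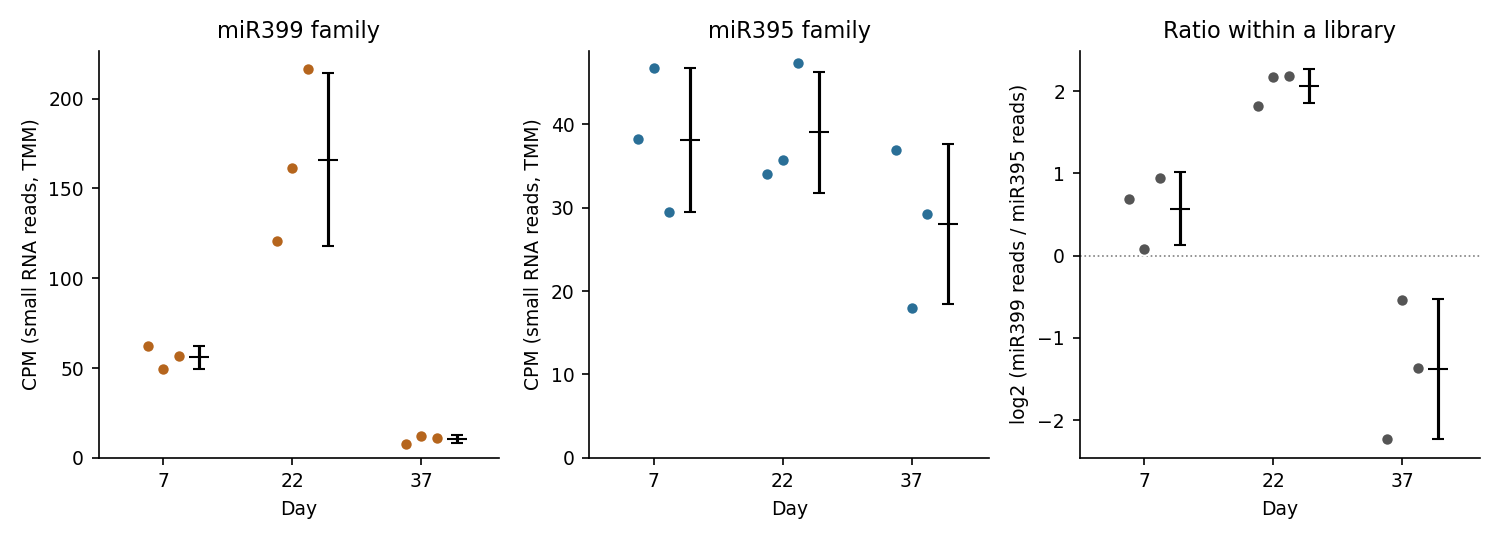
CPM of the miR399 family (left) and the miR395 family (middle) and the log2 ratio of their reads (right) at days 7, 22 and 37. Each point is a library and the black bars give mean ± SD (n = 3). The miR399 points of the 3 days do not overlap and peak at day 22, while the miR395 points overlap between all days, and the log2 ratio averages 2.06 at day 22 and -1.38 at day 37.

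Most miR399 reads stood in the mature entry miR399b, a name that the table gives to 27 miRNA names from 16 species. It held 113, 94 and 116 reads at day 7, 315, 398 and 671 reads at day 22, and 15, 29 and 12 reads at day 37. The 3 days did not overlap. Its log2 change was 1.90 (SE 0.29, adjusted p = 0.000473) for day 22 against day 7, -4.28 (SE 0.34, adjusted p = 1.75e-05) for day 37 against day 22 and -2.39 (SE 0.35, adjusted p = 0.00028) for day 37 against day 7. Its share of the family's reads was 61.9% ± 2.11, 77.3% ± 2.82 and 63.6% ± 22.7 on days 7, 22 and 37 (SD, n = 3), the last resting on few reads. Scaled to known miRNA reads, the entry's change for day 22 against day 7 was 1.26 (SE 0.32, adjusted p = 0.0066). Without this entry the family still passed in each contrast with TMM factors, but the change for day 22 against day 7 was smaller, at log2 0.79 (SE 0.29, adjusted p = 0.0363). Scaled to known miRNA reads, the family without this entry did not pass in that contrast (log2 0.16, SE 0.28, adjusted p = 0.633), and the libraries of days 22 and 7 overlapped.

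The hairpin entry of the same name held 17, 12 and 24 reads at day 7, 43, 48 and 61 reads at day 22, and 4, 0 and 1 reads at day 37. The hairpin and mature entries of this name were therefore both highest at day 22 and lowest at day 37. An Rfam entry for the mir-399 precursor averaged 4.57, 2.65 and 0.567 CPM on days 7, 22 and 37, with overlap between days 7 and 22. The libraries hold short RNAs, so reads of the miR399b hairpin are not a count of whole precursors. The hairpin's fall passed against both earlier days (log2 -4.48, SE 0.72, adjusted p = 0.000898, against day 22; log2 -3.16, SE 0.73, adjusted p = 0.00395, against day 7). For day 22 against day 7 its change of 1.33 (SE 0.56) had an adjusted p of 0.0616, although no library overlapped. This value passed when days 7 and 22 were fitted alone (adjusted p = 0.00528), in DESeq2 (0.0434) and with all reads as library size (0.0402). It did not pass with RLE factors (log2 0.99, adjusted p = 0.152), unadjusted library totals (0.88, adjusted p = 0.175), the replicate number as a block (1.42, adjusted p = 0.145) or known miRNA totals (0.68, adjusted p = 0.36). The size of the hairpin's fall rested on few reads: without day 37 replicate 1 it was -6.09 against day 22 and -4.77 against day 7, and without day 37 replicate 2 it was -3.90 and -2.57, each still called.

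The mature entry miR399a_1, which carries a single peach name, passed in the day 37 contrasts alone. It held 31, 31 and 26 reads at day 7, 37, 36 and 53 reads at day 22, and 0, 6 and 4 reads at day 37. Its log2 change for day 22 against day 7 was 0.32 (SE 0.51, adjusted p = 0.59), with the sign turning under several scalings. At day 37 its log2 change was -3.30 against day 22 (SE 0.62, adjusted p = 0.00215) and -2.98 against day 7 (SE 0.63, adjusted p = 0.00223), and -3.95 and -3.63 without day 37 replicate 2. The mature entry miR399a_6 held 17, 15 and 6 reads at day 7, 8, 17 and 19 at day 22, and 0, 0 and 8 at day 37, and it passed in no contrast. Without day 37 replicate 3, which alone held its reads at that day, it was called lower against day 22 (adjusted p = 0.00451) and against day 7 (adjusted p = 0.00255).

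The other 9 miR399 entries were hairpins and rare mature names with 1 to 26 reads each over the series. Over both families, 7 of 23 entries passed the filter on low counts, 4 of miR399 and 3 of miR395. Of these, 1 was higher at day 22 than at day 7, where 35.3% of all 7294 entries tested were called higher. At day 37, 3 were lower against day 22 and 3 against day 7, where 31.8% and 45.6% of all entries were. Among the 195 known miRNA entries tested, 45.1%, 26.7% and 23.1% were called in these directions. The called entries were miR399 names in each case, although with unadjusted library totals the hairpin miR395a_5 was also called lower at day 37 than at day 7 (log2 -1.54, adjusted p = 0.0271). The median log2 change of the 7 entries was 0.32 for day 22 against day 7, -2.10 for day 37 against day 22 and -2.08 for day 37 against day 7. In the same order, the medians were -0.01, -0.15 and -0.57 over all entries tested, and 0.87, -0.13 and 0.53 over known miRNA entries. The median of the 7 entries for day 22 against day 7 thus lay below that of known miRNA entries. An entry that passed the filter through its high days had to differ, so these figures only describe the list.

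**Figure D2:**
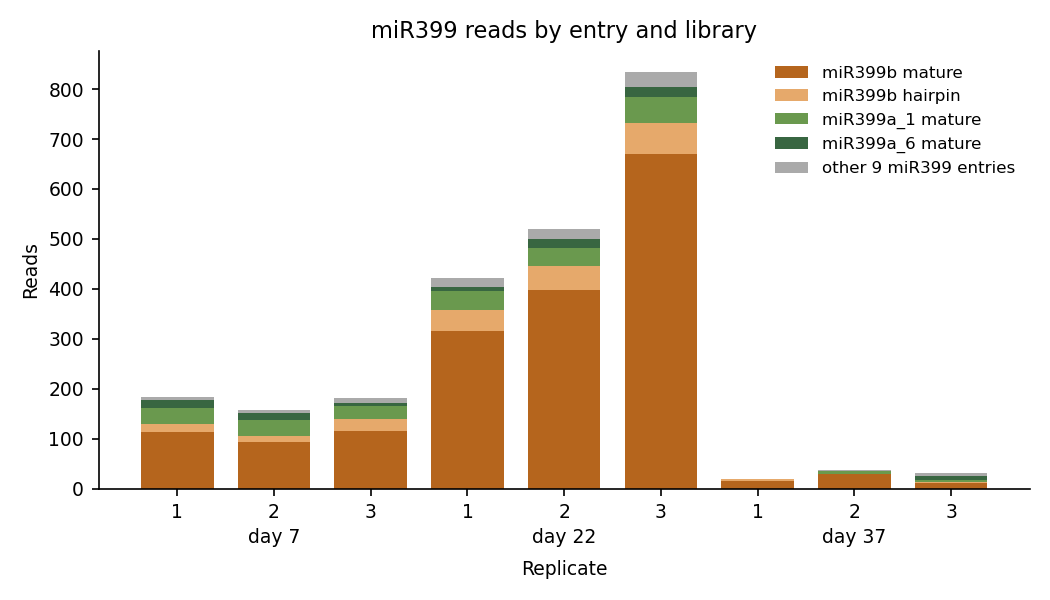
Reads of the miR399 family in each library, stacked by entry. The mature entry miR399b makes up most of every bar but that of day 37 replicate 3, and the day 22 bars, at 421, 519 and 835 reads, stand above all others.

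The miR395 family did not pass in any contrast, in a table where 70.8% of all small RNAs were called in either direction for day 22 against day 7, 51.4% for day 37 against day 22 and 79.5% for day 37 against day 7. Its summed entries held 113, 149 and 94 reads in the day 7 libraries, 119, 115 and 183 reads in the day 22 libraries, and 96, 54 and 83 reads in the day 37 libraries. Its mean level was 38.2 ± 8.61, 39.1 ± 7.25 and 28.05 ± 9.55 CPM on days 7, 22 and 37 (SD, n = 3), and the libraries of each pair of days overlapped. The log2 change was 0.04 (SE 0.27, adjusted p = 0.916) for day 22 against day 7, with a 95% interval from a 0.670-fold to a 1.57-fold ratio. It was -0.49 (SE 0.28, adjusted p = 0.181) for day 37 against day 22, with an interval from 0.459-fold to 1.11-fold. For day 37 against day 7 it was -0.45 (SE 0.28, adjusted p = 0.165), with an interval from 0.469-fold to 1.14-fold. These intervals leave room for a fall at day 37 to 0.459 of the day 22 level, so a constant level was not shown.

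Within the family, nearly all reads stood in a pair of mature entries that took turns between libraries. Entry miR395a_5, whose list holds 97 names from 19 species with Arabidopsis, poplar and grape among them, had 99, 3 and 0 reads at day 7, 0, 0 and 168 at day 22, and 91, 0 and 2 at day 37. Entry miR395b_3, with 25 names from 4 species that include wheat and the grass Brachypodium, had 0, 136 and 83 reads at day 7, 109, 110 and 0 at day 22, and 0, 49 and 73 at day 37. In each of the 9 libraries the lower of the pair held at most 3 reads, while their sum held 49 to 168 reads. The first was the higher in 3 libraries, 1 at each day, and the second in the other 6, so the turn did not follow the day. Their lists share 0 names and 0 species.

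Both mature entries of the pair therefore carry no reading between days, and the family sum was used for miR395 in their place. They are among the tested entries counted above, where a call was hardly possible for them. For day 22 against day 7 the SE was 2.09 for miR395a_5 and 1.45 for miR395b_3. The pair's sum stood at 34.4 ± 8.80, 36.3 ± 6.42 and 25.9 ± 9.38 CPM at days 7, 22 and 37 (SD, n = 3). The hairpin entries did not take turns in this way. The hairpin miR395a_5 had 8, 4 and 7 reads at day 7, 8, 3 and 11 at day 22, and 3, 4 and 4 at day 37, so it was read in the 4 libraries where its mature entry was at 0. The hairpin miR395b_3 had 1 to 5 reads in every library. The remaining 6 entries held 1 to 3 reads each over the series, and 5 of them were read in 1 library only.

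**Figure D3:**
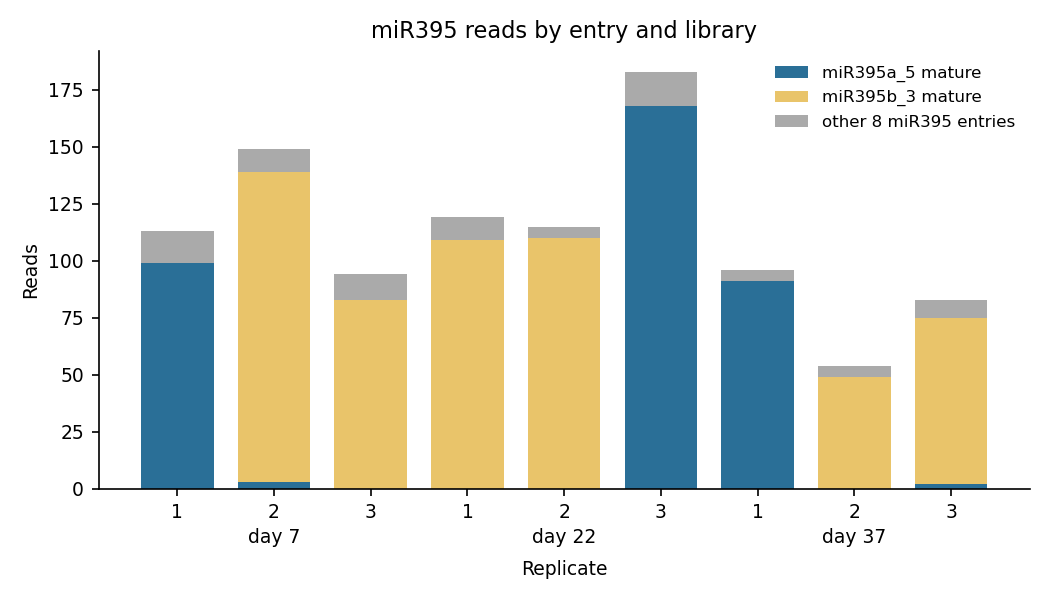
Reads of the miR395 family in each library, stacked by entry. Each bar is filled almost wholly by miR395a_5 or by miR395b_3, never by both, while the full bars run from 54 to 183 reads and overlap between days.

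The 2 families were set against each other within each library, which needs no scaling between libraries. This ratio compares reads and not molecules per length. The reads of miR399 over those of miR395 came to 1.62, 1.05 and 1.92 in the day 7 libraries, 3.53, 4.50 and 4.55 in the day 22 libraries, and 0.212, 0.688 and 0.389 in the day 37 libraries (0.5 reads added to each side). The order turned between days, with more miR399 than miR395 reads in all day 7 and day 22 libraries and fewer in all day 37 libraries. The excess of miR399 reads at days 7 and 22 stood largely in the mature entry miR399b, which held 73.9% of the family's reads over the series. Without it, and with miR395 left whole, miR399 held 70, 63 and 65 reads at day 7, fewer than miR395 in each library. At day 22 it then held 106, 121 and 164 reads, more than miR395 in replicate 2 alone. Taking the largest entry from 1 side had to lower the ratio, so these counts only describe where the reads stood. With all entries, the mean log2 ratio was 0.57 ± 0.45, 2.06 ± 0.21 and -1.38 ± 0.85 at days 7, 22 and 37 (SD, n = 3). It differed by 1.49 for day 22 against day 7, by -3.44 for day 37 against day 22 and by -1.95 for day 37 against day 7. Each exact two-sided permutation p was 0.1, adjusted 0.1 over the 3 contrasts, which is the smallest that 3 against 3 libraries allow.

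The scaling between libraries changed calls of the miR395 family and none of the miR399 family, although it moved the size of the miR399 change, to -3.32 for day 37 against day 7 with unadjusted library totals. With TMM factors, the median log2 change of all rows with reads on either day was -0.06 for day 22 against day 7, -0.41 for day 37 against day 22 and -0.67 for day 37 against day 7. Other scalings moved these medians, to between -0.72 and 0.09, between -0.88 and 0.24, and between -1.59 and -0.41. Relative to the median, miR395 differed by 0.09 to 0.13, by -0.13 to -0.08 and by 0.17 to 0.23 over 6 scalings. The miR399 family differed by 1.62 to 1.65, by -3.64 to -3.57 and by -1.79 to -1.73. A scaling moves all rows of a library alike, so these differences had to stay nearly constant and do not test the changes. Over the 33 known miRNA families, miR395 and miR399 included, the median with TMM factors was 1.05, -0.29 and 0.09 in the same order. For day 22 against day 7, miR399 at 1.57 thus lay above that family median and miR395 at 0.04 below it. The miR395 family was called lower at day 37 with library totals alone, at -0.97 against day 22 (SE 0.27, adjusted p = 0.0144) and -1.37 against day 7 (SE 0.28, adjusted p = 0.00148), a scaling under which the medians were -0.88 and -1.59. With all reads as library size it was called against day 22 only, at -0.78 (SE 0.28, adjusted p = 0.0445) beside a median of -0.67.

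**Figure D4:**
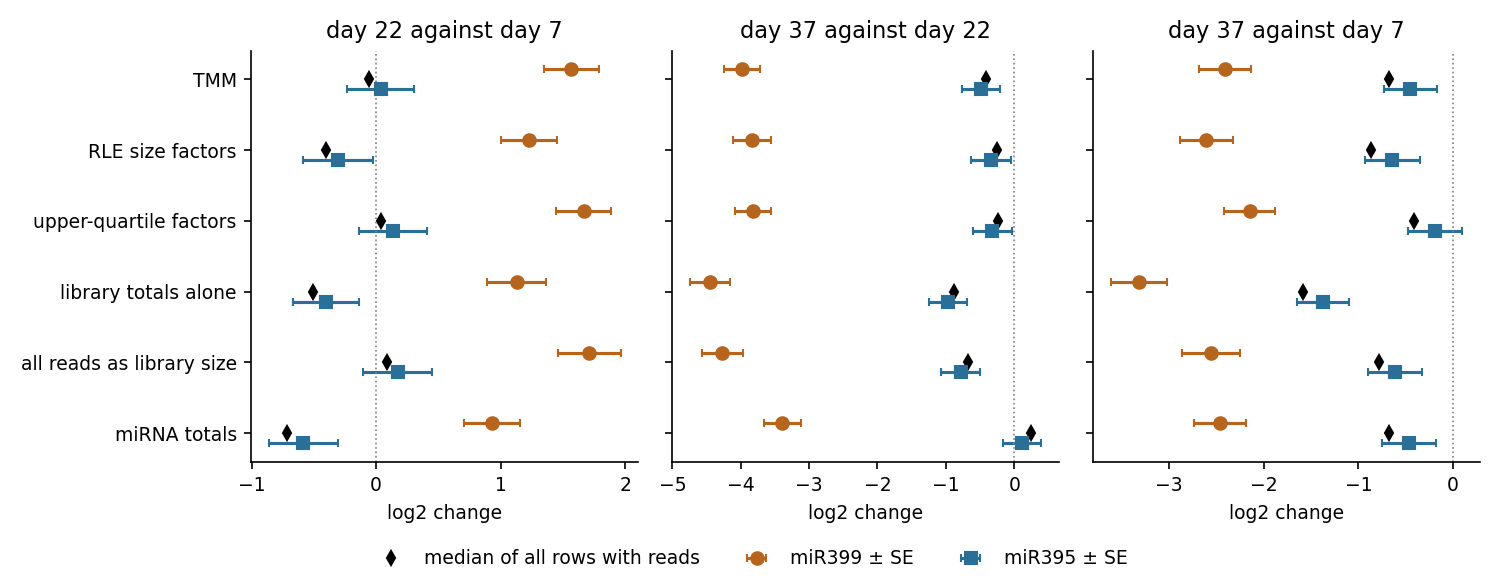
Log2 change of miR399 (circles) and miR395 (squares) with SE in 3 contrasts under 6 scalings, and the median of all rows with reads on either day (diamonds). The miR395 squares and the miR399 circles both move with the diamonds from scaling to scaling. The squares stay near the diamonds. The circles keep to the right of the diamonds for day 22 against day 7 and to the left for both day 37 contrasts.

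Of the other nutrient-linked families, miR397 and miR398 had entries, and miR408, miR827 and miR2111 had 0 mature or hairpin entries. At day 22 against day 7, miR397, which targets laccases, rose by a log2 of 2.82 (SE 0.16, adjusted p = 1.94e-06) and was called higher under all 6 scalings. The change of miR398, which targets copper superoxide dismutases, depended on the scaling there, at 0.41 with TMM factors (SE 0.11, adjusted p = 0.00953), 0.068 with RLE factors (adjusted p = 0.604), -0.034 with unadjusted library totals (adjusted p = 0.781) and -0.22 with known miRNA totals (adjusted p = 0.155). At day 37 against day 22, miR398 was lower (log2 -0.96, SE 0.11, adjusted p = 0.00013), and against day 7 likewise (-0.55, SE 0.11, adjusted p = 0.00179), and both calls held under all 6 scalings. For day 37 against day 22, miR397 stood at -0.065 (adjusted p = 0.813), but was called lower with unadjusted library totals (-0.54, adjusted p = 0.00948) and higher with known miRNA totals (0.54, adjusted p = 0.0248). Against day 7, miR397 was higher at day 37 by 2.76 (SE 0.16, adjusted p = 7.14e-07), a call that held under all 6 scalings.

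The known miRNA families whose log2 CPM ran most like that of miR399 over the 9 libraries, among 28 with a mean of at least 10 CPM, were miR164 (Pearson r = 0.992), miR398 (r = 0.947) and miR403 (r = 0.946). The NAC-factor regulator miR164 averaged 3136 ± 159, 7274 ± 782 and 952 ± 133 CPM on days 7, 22 and 37, and the AGO2 regulator miR403 at 346 ± 10.5, 941 ± 37.1 and 204 ± 9.47 CPM. In TMM-scaled CPM, all share with miR399 their highest mean at day 22 and their lowest at day 37. For miR395 the nearest were miR166 (r = 0.646), miR396 (r = 0.640) and miR398 (r = 0.596), while miR395 and miR399 had r = 0.526 with each other. These values describe points that share libraries, days and scaling factors, and they carry no test.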

How the data were processed

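Small RNA of 9 seed libraries was sequenced from a gel band of short RNAs with adapters that carry molecular identifiers, per the labels' protocols. Bowtie2 is named in the submitters' processing notes without a role, and neither the counting tool nor the genome build or filters could be read from the labels. Per entry and library, the deposited table holds a whole-number read count, per the file headers, with no normalization by the authors. A second deposited column per library, headed TPM, is not scaled to a fixed total, lies at or below the count, and was treated as a score of unstated meaning for an alternative alone. Nothing states whether either column was collapsed by molecular identifier, so the read counts may hold PCR copies of 1 molecule, and counting error may be understated. Predicted miRNA and siRNA sequences, other values per the file headers, were not used. Known miRNA entries were listed from 1 read.

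The 3 totals for exons, introns and intergenic sequence were left out, and library size was the sum of the 8473 small RNA entries. Each known miRNA family was summed over mature and hairpin entries and put in the full table in place of them. The count test was the quasi-likelihood F test of edgeR 4.0.16 (R 4.3.3), run once over all 9 libraries with day as the factor, TMM factors of the entry table and filterByExpr by day. Benjamini-Hochberg adjustment ran over all 7132 rows and a threshold of 0.05. Single entries were tested over 7294 entries in the same way. Standard errors are the log2 change over the root of F. In simulated counts of the same 7132 rows, all of the 200 rows changed by a log2 of 2 in day 37 against day 22 were recovered (100.0%). The changed rows were drawn from those with more reads, all rows shared a common dispersion, and the other rows were left unchanged. The simulation therefore does not cover sparse entries, smaller changes or a table in which most rows move. Alternatives were other scalings (RLE, upper quartile, library totals, all reads, known miRNA reads), filters, DESeq2 1.42.0, fits of 2 days, a replicate block, mature or hairpin entries alone, the second column, leaving out each library, and, added after seeing the data, miR399 without its most abundant entry, also with known miRNA reads as the scale. The text names each member entry with a fitted change where it passed in at least 1 contrast, a list of nutrient families, and the 3 families of at least 10 CPM most like each member (log2 CPM with 2 reads added). The members and lists were chosen with earlier results of these data known.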

Additional observations from a re-analysis of the deposited data

Results flagged for a closer look

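An Rfam model for the mir-399 precursor, an entry outside the named miRNA entries, also took reads, above the 3 reads that a count of 0 allows in 6 libraries. It held 9, 20 and 14 reads at day 7, 8, 14 and 5 reads at day 22, and 0, 3 and 2 reads at day 37. In the edgeR fit of all entries it was lower at day 37 than at day 7 (log2 -2.90, SE 0.87, adjusted p = 0.0143), as the family was. For day 22 against day 7 it stood at -0.79 (SE 0.78, adjusted p = 0.387), with overlapping libraries, where the family rose. For day 37 against day 22 it stood at -2.11 (SE 0.86, adjusted p = 0.0742). How its reads relate to the hairpin entries of the family was not tested.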

How the results depend on the processing

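The miR399 family kept its direction under each alternative run, between 0.16 and 1.75, -4.45 and -2.67, and -3.32 and -2.08 on the log2 scale in the 3 contrasts. It kept its call except for day 22 against day 7 without miR399b mature and with miRNA totals together, where it stood at 0.16 (adjusted p = 0.633). The uncalled miR395 change for day 22 against day 7 turned to -0.31 with RLE factors, -0.40 with unadjusted library totals, -0.58 with miRNA totals, -0.29 in DESeq2, -0.42 with hairpin entries only and -0.026 with the values headed TPM, and ran from -0.20 to 0.14 without 1 library. Against day 22 at day 37 it was called at -0.97 with unadjusted library totals and -0.78 when all reads set the library size, and turned to 0.11 with miRNA totals. Against day 7 at day 37 it was called at -1.37 with unadjusted library totals. The entry miR399a_1 for day 22 against day 7 turned to -0.019 with RLE factors, -0.017 in DESeq2, -0.12 with unadjusted library totals and -0.30 with miRNA totals. Entries called for day 22 against day 7 were 2, not 1, with all reads as library size, in DESeq2 and with only the 2 days compared, miR399b hairpin being the added one. Without 1 library, 1 to 2, 3 to 4 and 3 to 4 entries were called in the 3 contrasts, the added ones being miR399b hairpin without day 37 replicate 1 or 2, miR399f-5p hairpin without day 22 replicate 1 and miR399a_6 mature without day 37 replicate 3. With unadjusted library totals 4 entries were called for day 37 against day 7, miR395a_5 hairpin being added. The cause of these changes was not tested. With the replicate number as a block, miR399 stood at 1.53, -3.96 and -2.43 and no family call changed. Same-numbered libraries had deviations that correlated at -0.03 to 0.07, so the numbers were not taken as pairs. For the miR399 to miR395 ratio the paired exact sign-flip p was 0.25 in each contrast, the smallest that 3 pairs allow. Few reads limit both families, with 20 to 37 miR399 reads per library at day 37.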

Other observations

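Another pair of entries, chosen after its values were seen, took turns at day 22. The hairpin miR399f-5p held 0, 12 and 13 reads in the day 22 libraries and at most 1 read in any other library. The hairpin miR399b_1 held 10, 0 and 0 reads in the same libraries and at most 1 elsewhere, so that their sum was 10, 12 and 13 reads at day 22. Over all known miRNA entries with at least 30 reads in a library of a day, 9.49% of 137 at day 7, 9.09% of 165 at day 22 and 6.43% of 140 at day 37 were at 0 in another library of that day. Both miR395 mature entries were among them at each day. Neither the hairpin miR399f-5p nor the hairpin miR399b_1 reached 30 reads in a library, so these shares do not cover that pair. They count entries at 0 and not pairs that take turns.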
